A study of Mus musculus with 6 samples.

Results

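The values described here are the late step of an osteogenic culture, the day 14 array set against the day 10 array, for the 8324 genes whose brightest probe was detected (detection p under 0.01) on at least 1 of these 2 arrays, out of 9751 genes with a probe and 8881 detected anywhere in the series. The cells were mesenchymal stem cells grown out of fat (dorsal and inguinal) from mice of the C57BL/6 strain. The day 14 and the day 10 group each had 1 Illumina bead array, and so had days 0, 1, 3 and 6. Cells of both late groups carried no engineered allele and had been kept in the same osteogenic medium, which contained ascorbic acid, β-glycerophosphate, the glucocorticoid dexamethasone, DMSO and serum. The age and number of the mice, and whether their cells were pooled, are not stated in the labels. With 1 array a day there is no replicate, no test and no p-value for any difference below, and time in the medium, time in culture, the culture dish and the array cannot be told apart.

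Mesenchymal cells from fat can become osteoblasts, the cells that lay down and mineralise bone matrix, or adipocytes, which store lipid. Ascorbic acid is needed for collagen to fold, β-glycerophosphate supplies phosphate for mineral, and dexamethasone pushes the cells out of their progenitor state. Once such cultures have left the cell cycle and switched their programme, what can still move includes the cytoskeleton, sterol synthesis, secreted factors and the rapid transcriptional response to growth factors. In bulk RNA, more cells of a type and more RNA per cell cannot be told apart.

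The signal table was background corrected and quantile normalized over all 6 arrays, and levels are on the resulting log2 scale. On day 14 and day 10, 13980 and 13248 probes were detected, with median signals of 127.9 and 127.2 and highest signals of 62522 and 64782. Of the 8324 genes, 7890 were detected on both arrays, 388 on day 14 alone and 46 on day 10 alone. The lowest detected log2 level was 6.64 on day 14 and 6.87 on day 10, and a gene detected on 1 array is given as "at least" a fold over the lowest detected level of the other. The 60 genes just inside the detection rule, at a p of 0.009981 on their better array, had log2 levels of 6.25 to 6.69 on day 14 and 5.91 to 6.94 on day 10. The 40 genes just outside it, at 0.010605, had 6.14 to 6.64 and 6.07 to 6.87. All 10 mesenchymal stromal markers with a probe (Pdgfra, Pdgfrb, Thy1, Eng, Cd44, Itgb1, Vim, Alcam, Mcam and Col1a2) were detected, Mcam on day 14 alone. Their summed signal was 122691 on day 14 and 119570 on day 10, with Vim as the largest part (48147 and 50976). The markers moved unevenly within that sum. Only Pdgfrb and Pdgfra were lower, with log2 differences, day 14 minus day 10, of -0.50 and -0.21. Thy1, Alcam and Eng had 0.89, 0.71 and 0.63. Of the 4 osteoblast markers with a probe, the transcription factor Sp7 and the parathyroid hormone receptor Pth1r were detected, while Alpl, the alkaline phosphatase of mineralising cells, and Ifitm5 were not. The summed signal of these 4 was 1123 on day 14 and 1009 on day 10. Sox11, the transcription factor in the title of the series, stood at 6.54 on day 14, under detection, and at 7.01 on day 10. On this probe, near the detection limit, it was at least 1.29-fold lower on day 14. Its other probes, under detection on both arrays, gave log2 differences of 0.08 and -0.23.

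Most genes moved little. On day 14, 80 genes were at least 2-fold higher than on day 10 (0.961% of the genes) and 21 were at least 2-fold lower (0.252%). Of these, 51 and 16 were detected on both arrays. Without background correction the counts were 30 higher and 10 lower. At 1.5-fold the counts were 377 higher (4.53%) and 172 lower (2.07%), so that 93.4% of the genes moved less than 1.5-fold. The median difference was 0.00, and the percentiles 1 and 99 lay at -0.71 and 0.99. The 4 days before, from day 6 to day 10, are a step of the same length that shares the day 10 array: there 107 genes were at least 2-fold higher on day 10 (1.29%) and 354 lower (4.28%). The first step, day 1 over day 0, had 323 higher and 297 lower (3.97% and 3.65%). Day 3 over day 1 had 722 higher and 467 lower (8.69% and 5.62%), and day 6 over day 3 had 564 and 504 (6.69% and 5.98%).

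The SD of the log2 difference over genes was 0.325 for day 14 minus day 10, the smallest of the 15 pairs of arrays. It was also the smallest over the 7064 genes detected on all 6 arrays (0.283), and over the 31109 probes detected nowhere (0.163). The next closest pair was day 14 with day 6, 8 days apart, at 0.409, while day 10 with day 6, only 4 days apart, stood at 0.515. Day 14 also stood nearer to day 0 than day 10 did, at 1.28 against 1.30, and nearer to day 3, at 0.975 against 1.03. Among the last 3 arrays the distance in expression therefore did not grow with the days apart.

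**Figure D1:**
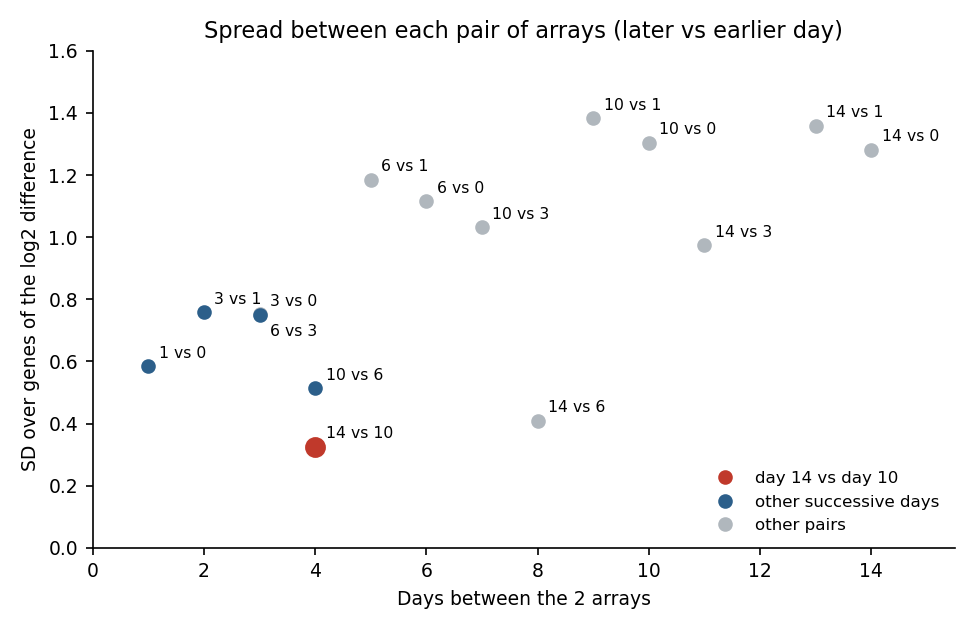
SD over genes of the log2 difference between the 2 arrays of each pair (y axis) against the days between them (x axis). The red point is day 14 with day 10, at 0.325, blue points are the other successive days and grey points all other pairs; day 14 with day 6, at 0.409, lies below day 10 with day 6, at 0.515.

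How far a single gene has to move to stand clear of measurement error was described within the arrays, by probes of the same gene and by repeated entries, neither of which contains the error of the culture or of RNA extraction. For 2007 genes with another detected probe, both probes were read on the same RNA samples and arrays. Whether they read the same transcripts was not checked. The SD of their disagreement, per probe, was 0.205, against an SD of 0.278 for the change itself. The changes of the 2 probes had a Pearson r of 0.54 and a Spearman rho of 0.50 across genes, which are not independent replicates. The disagreement was larger for dim probes: its robust SD was 0.233 where the dimmer probe lay below a log2 level of 8, and 0.0878 above 12. Between 30 entries of 9 repeated identifiers, the log2 ratios of the deposited signals had a pooled SD of 0.107 within an identifier. These signals were not background corrected, and the entries were not alike. In 1 identifier they ran from 156 to 20327 on day 14. Some identifiers had no entry detected on both arrays, and others reached 86.1%, 96.8% and 97.5% of the highest signal. The value of 0.107 is therefore not comparable with 0.205. The spread of the change itself does contain the errors of culture and extraction and any change in the cells. It also narrowed towards bright genes, with a robust SD of 0.311 at levels of 7 to 8 and 0.189 above 13.

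Few of the larger changes could be read on another probe. Of the 8 genes at least 2-fold apart with such a probe, 7 moved at least 1.5-fold the same way on it. These were Mylk, Pqlc3, Hsd11b2, Ptges3l and Mgst3, all higher on day 14, and Dusp4 and Angptl4, both lower. Pqlc3, Hsd11b2 and Ptges3l were named after their values had been seen. The eighth, the orphan receptor Gpr85, was 2.01-fold higher on its brightest probe and 1.19-fold lower on the other. Of 83 genes at least 1.5-fold apart, 75 moved the same way on the other probe and 36 passed 1.5-fold there. The largest disagreements were those of Khnyn (0.72 and -0.68), Gpr85 (up on 1 probe, -0.25 on the other), Hp (-0.12 and 1.10), Aldh5a1 (0.72 and -0.40) and Acta2 (0.61 and 1.62).

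**Figure D2:**
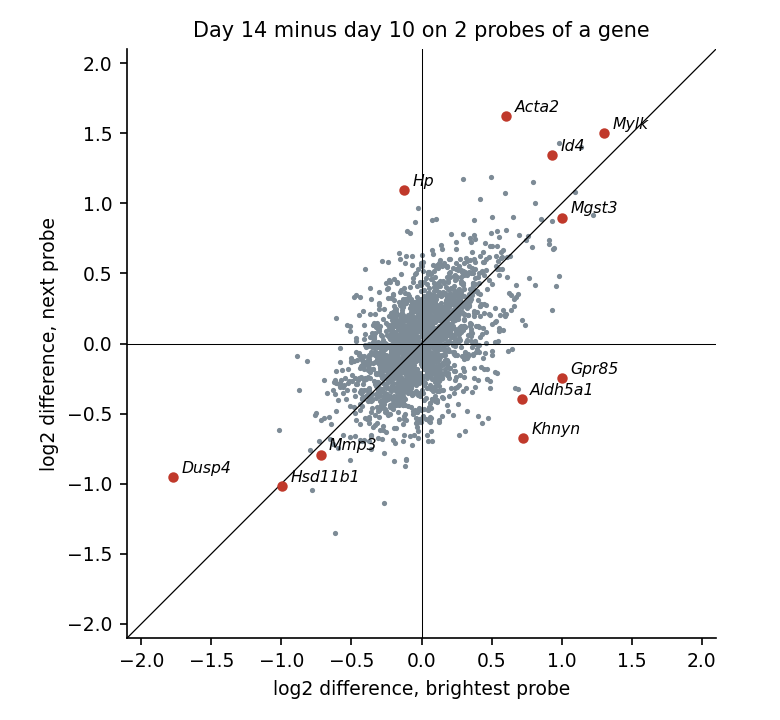
log2 difference, day 14 minus day 10, on the brightest probe (x axis) and the next probe (y axis) of 2007 genes; the line marks equal change, and red points are genes named in the text. Mylk, Dusp4, Hsd11b1 and Mgst3 lie far from 0 on both axes, and Gpr85, Khnyn and Aldh5a1 change sign.

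Npy, the peptide neurotransmitter neuropeptide Y, stood at 10.15 on day 14 and 7.98 on day 10, a 4.52-fold difference and the largest among genes detected on both arrays. Its level over days 0, 1, 3, 6, 10 and 14 was 5.24, 8.20, 7.12, 9.37, 7.98 and 10.15, so day 14 was its peak. Hpgd, the enzyme that inactivates prostaglandins, stood at 10.81 on day 14 and 8.78 on day 10, 4.08-fold higher, and day 14 was again the highest of the 6 days. Car3, a carbonic anhydrase abundant in adipocytes and muscle, stood at 9.18 and 7.19, 3.96-fold higher. Scg2, a secretory granule protein, was 2.83-fold higher, and Sort1, a receptor that sorts proteins to lysosomes and secretory granules, was 3.00-fold higher. Ramp1, the partner subunit of the receptor for calcitonin gene-related peptide, stood at 12.72 on day 14 and 11.39 on day 10, 2.50-fold higher. Igfbp2, an insulin-like growth factor binding protein, was 2.73-fold higher, Igf1 itself 1.64-fold, and Stc1, a secreted glycoprotein, just under 2-fold. Cmbl, a hydrolase, and As3mt, a methyltransferase that acts on arsenic, were 2.55-fold and 2.69-fold higher.

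Prl2c2, a placental prolactin relative called proliferin, was 3.28-fold higher on day 14, at 9.04 against 7.33 on day 10. Its relatives Prl2c3 and Prl2c4 were detected on day 14 alone, at least 3.04-fold and 2.59-fold higher. The 3 genes are near-identical copies whose probes may read each other, and they count as uncertain individually. Cd59b, an inhibitor of complement lysis, was 3.05-fold higher and its duplicate Cd59a 1.84-fold. The largest other bounds were those of Gipc2, a PDZ-domain protein (at least 2.97-fold), Mfap4, a microfibril-associated protein (2.57-fold), and Wfdc1, a secreted protease inhibitor-like protein (2.54-fold). Csdc2 (2.34-fold), Lst1 and the transcriptional cofactor Lmo2 (2.32-fold each) followed. Of the 80 genes at least 2-fold higher, 29 were detected on day 14 alone.

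Day 14 was the highest of the 6 days for 38 of the 80 genes, and day 10 was the lowest for 29 of them. Over all 8324 genes, day 14 was the highest for 1288 and day 10 the lowest for 1638. The 80 genes were chosen for a day 14 level above that of day 10, which favours both ranks. The first kind includes Npy, Hpgd, Car3, Ramp1, Igfbp2 and Scg2, although Ramp1 was nearly as high on day 6 (12.68, against 12.72 on day 14). The second kind includes Cthrc1, Cemip, Mylk, Actg2, Tagln, Timp1 and Fosb, whose day 14 level moved back towards those of earlier days. A lower level on day 10 than on day 6 was not particular to the second kind: Npy (9.37 on day 6), Car3 (7.84), Ramp1, Igfbp2 (9.60) and Hpgd (8.94) had it too. Every one of these differences rests on the single day 10 array.

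**Figure D3:**
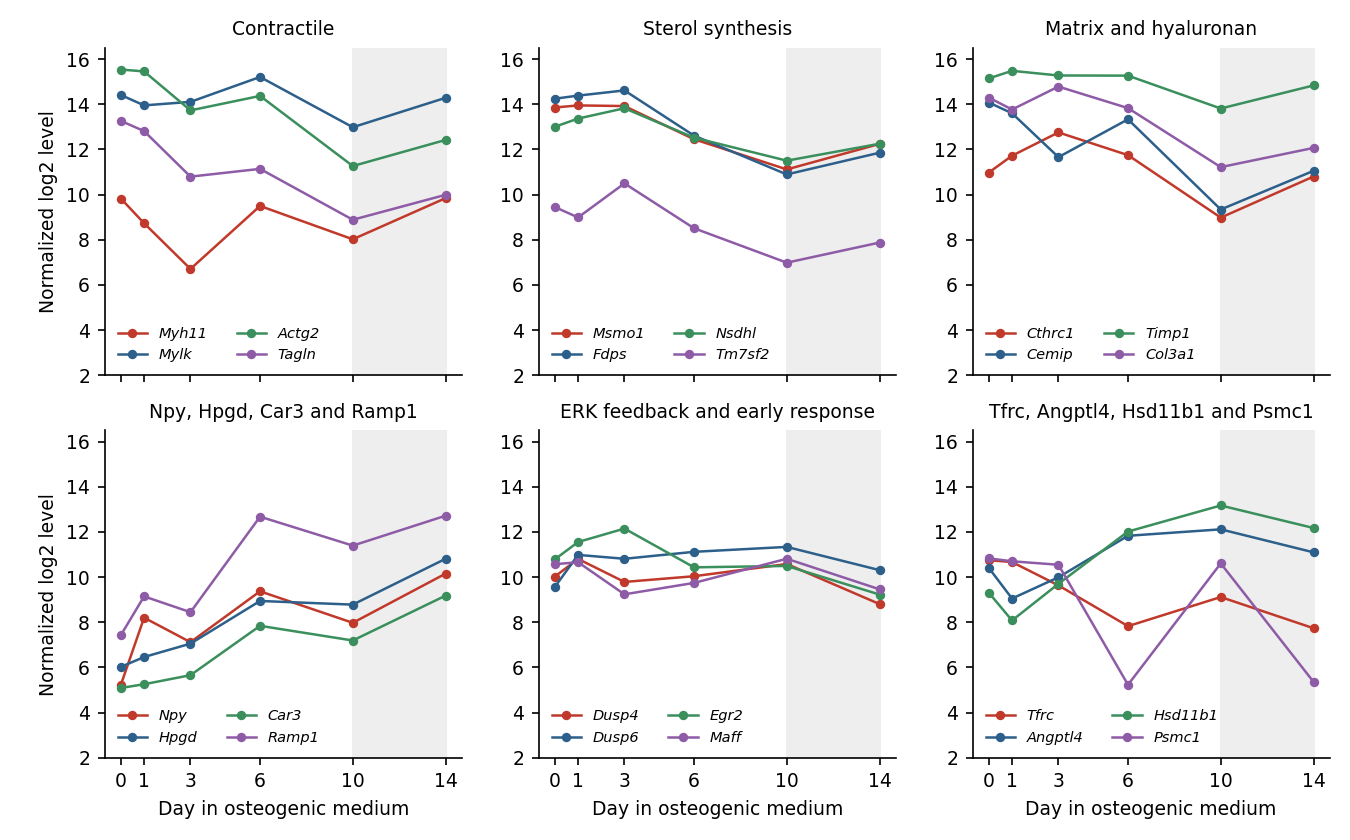
Normalized log2 level (y axis) of 24 genes over days 0 to 14 (x axis), 1 array a day, with the step from day 10 to day 14 shaded. Npy, Hpgd, Car3 and Ramp1 are highest on day 14, the contractile, sterol and matrix genes shown stand higher on day 14 than on day 10 after a fall from day 6 to day 10, and Psmc1 drops to background on days 6 and 14.

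The contractile genes of smooth muscle were higher as a group. Of 23 described members, 4 were at least 2-fold higher, against 0.961% of all genes, and none was 1.5-fold lower. At 1.5-fold 8 were higher (34.8%, against 4.53% of all genes). Among the 22 detected on both arrays 7 were, against 275 of 7890 genes. These 7 include Acta2, whose brightest probe was near the top of the scale. Ankrd1 was detected on day 14 alone, at least 1.11-fold higher. Depending on the normalization, 17 of 23 to 18 of 23 were higher at all, where 50.4% of all genes were. The median difference was 0.50 (0.47 over the 22 detected on both arrays), against 0.00 for all genes. Myh11, the smooth muscle myosin heavy chain, stood at 9.84 on day 14 and 8.02 on day 10, 3.53-fold higher. Mylk, the kinase that switches myosin on, stood at 14.28 and 12.98, 2.47-fold higher, and 2.84-fold on its next probe. Actg2, an actin of visceral muscle, stood at 12.42 and 11.26, and Tagln, an actin-binding protein, at 9.99 and 8.88. Their folds were 2.23 and 2.15. The coactivator Myocd, which turns on these genes together with serum response factor, was 1.72-fold higher. Outside that list, Notch3, the Notch receptor of mural cells, was 2.15-fold higher and Hspb6, a small heat shock protein of muscle, 2.14-fold. The general cytoskeletal members varied: Csrp1 had 0.50, Tpm4 0.45, Actn1 0.43, Cnn2 0.30, Flna 0.04, Zyx -0.09 and Vcl -0.11, and Pdlim7 had -0.05 on its brightest probe and 0.87 on another.

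Acta2, the smooth muscle α-actin, was read differently by its probes. Its brightest probe reached 86.9% of the highest signal of the day 14 array and gave a difference of 0.61, while its dimmer probes gave 1.62 and 1.49. Haptoglobin (Hp), an acute phase protein, read -0.12 on its brightest probe, at 15.57 on day 14, and 1.10 on another, at 15.69 on day 14 and 14.59 on day 10. Both Hp probes were near the top of the scale on day 14, and why they differ was not tested. In all, 106 genes had a probe at 50% or more of the highest signal, and their differences are not resolved. All 5 of the smooth muscle and pericyte markers with a probe were detected, and their summed signal was 57039 on day 14 and 37129 on day 10, most of it from Acta2, at 54343 and 35491. The part of such cells in the contractile group was not tested.

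Every described gene of cholesterol synthesis was higher on day 14. All 17 stood above their day 10 level, under each of 7 settings of background and normalization, with a median difference of 0.54. Over all genes, 50.4% were higher. On normalized values, which include genes detected on 1 array, 7 of the 17 passed 1.5-fold (41.2%, against 4.53% of all genes). At 2-fold 2 passed, against 0.961% of all genes. Among the 15 detected on both arrays these counts were 6 and 1. Mvd, which makes isopentenyl diphosphate, was detected on day 14 alone, at least 1.76-fold higher, with signals of 307 on day 14 and 185 on day 10. Msmo1, a methylsterol oxidase, stood at 12.24 on day 14 and 11.11 on day 10, 2.19-fold higher. Fdps, which makes farnesyl diphosphate, was 1.95-fold higher, Tm7sf2, a sterol reductase, 1.85-fold, and Nsdhl, a sterol dehydrogenase, 1.68-fold. The 2 other probes of Nsdhl gave log2 differences of 0.74 and 1.15, beside 0.75. The smallest differences were those of Sc5d (0.15) and of Srebf2 (0.19), the transcription factor that drives the pathway. The levels remained below those of day 6 for Msmo1, Fdps and Nsdhl, as Fdps shows, at 12.61 on day 6, 10.89 on day 10 and 11.85 on day 14. Mvd was close to its day 6 level, at 7.73 on day 6 and 7.69 on day 14.

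Matrix genes moved unevenly. Cthrc1, a secreted protein that limits collagen deposition, stood at 10.80 on day 14 and 8.98 on day 10, 3.53-fold higher, after 12.75 on day 3. Cemip, a hyaluronan-degrading protein, stood at 11.05 and 9.34, 3.28-fold higher, after 13.33 on day 6. Of 35 collagens and collagen enzymes, 4 passed 1.5-fold upwards (11.4%, against 4.53% of all genes), none downwards, and the median was 0.25. The 4 were Pcolce2 and Pcolce, which help cut procollagen, Col3a1 and Col8a2, at 1.88-, 1.67-, 1.80- and 1.76-fold. The main bone collagen chains moved less, with differences of 0.25 for Col1a2 and 0.07 for Col1a1. Timp1, a metalloproteinase inhibitor, was 2.03-fold higher, and Timp4 was 1.91-fold higher. Adamts4, a protease that cuts aggrecan, was detected on day 14 alone, at least 2.02-fold higher. Mmp11 (stromelysin-3) went the other way, at 10.41 on day 14 and 11.54 on day 10, 2.19-fold lower, as did Mmp3, 1.65-fold lower on its brightest probe (-0.72) and -0.79 on another. Comp, a cartilage matrix protein, was 1.84-fold higher and Thbs2, a thrombospondin, 1.55-fold lower.

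The immediate early genes, which respond to growth factors within minutes, stood mostly lower. Of 24 described members, 5 were at least 2-fold lower and 7 at least 1.5-fold lower on normalized values (4 and 6 among the 22 detected on both arrays). These 7 are 29.2%, against 2.07% of all genes, and the 5 stand against 0.252%. At least 1.5-fold higher was 1 member (4.17%, against 4.53%), and only 5 were higher at all under any of the 7 settings. Their median difference was -0.28. Egr3 stood at 8.55 on day 14 and 9.95 on day 10, 2.62-fold lower, and Egr2 at 9.23 and 10.49, 2.41-fold lower. Both are zinc-finger transcription factors, and both were at their lowest of the 6 days on day 14. Maff, a small Maf factor, was 2.55-fold lower, and Fosl1, an AP-1 subunit, was detected on day 10 alone, at least 1.51-fold lower on day 14. Ier2 was 1.90-fold lower and Myc 1.63-fold lower, while Egr1 (-0.58), Jun (-0.51), Fos (-0.20) and Junb (-0.12) moved less. Fosb was the exception, 2.78-fold higher, with signals of 803 on day 14 and 365 on day 10.

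Among the largest falls were 3 phosphatases that switch off ERK, the growth factor kinase upstream of these genes. They are named for the size of their falls, not from a list of such phosphatases. Dusp6 is also one of the immediate early genes counted above as at least 2-fold lower, so its fall is not a separate observation. Dusp4 stood at 8.81 on day 14 and 10.58 on day 10, 3.42-fold lower, the largest fall among genes detected on both arrays, and its other probe gave -0.96 beside -1.77. Over days 0, 1, 3, 6, 10 and 14 its level was 10.02, 10.81, 9.79, 10.04, 10.58 and 8.81. Dusp5 was 2.38-fold lower and Dusp6 2.04-fold lower, at 8.35 and 10.31 on day 14 against 9.60 and 11.34 on day 10. Dusp1, a broader phosphatase and also a member of the immediate early list, had a difference of -0.19. Etv5 (-0.91), Phlda1 (-0.69), Spred1 (-0.54) and Spry4 (-0.35), also known to follow ERK, were looked up after the values of these genes had been seen. No list of ERK targets was counted, so how many others did not fall is not given. A change in ERK activity was not tested.

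The promoters of the immediate early genes, the contractile genes and the genes at least 2-fold apart were searched for the CArG box, the site of serum response factor. Both strands were read from 250 bases before to 50 after the gene start (RefSeq, GRCm38.p6). Of 18 immediate early genes with a promoter in the table, 3 held it (Egr2, Zfp36 and Srf), and so did 2 of 16 genes at least 2-fold lower (Dusp5 and Egr2), against 1.63% of all promoter windows. Dusp4 and Dusp6 were not among the genes found to hold it. Among genes at least 2-fold higher, 1 of 49 held it (Tal2, 2.04%). Of the contractile genes, Vcl (-0.11) and Cnn2 (0.30 on its brightest probe and 1.17 on a dimmer one) held it, 2 of 18. The 250 bases before the gene start of Egr2 and Dusp5, both at least 2-fold lower, are shown with the CArG boxes in capitals. They lie at chr10:67537316-67537565 and chr19:53528895-53529144, both on the plus strand, and in each the last box ends 63 bases before the gene start. A match describes the letters and is not evidence of binding.
Egr2: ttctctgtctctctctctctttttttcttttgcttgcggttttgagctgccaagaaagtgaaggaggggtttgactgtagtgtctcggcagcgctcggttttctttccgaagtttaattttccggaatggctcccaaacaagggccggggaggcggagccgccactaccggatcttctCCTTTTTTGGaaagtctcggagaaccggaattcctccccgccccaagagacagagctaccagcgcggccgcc
Dusp5: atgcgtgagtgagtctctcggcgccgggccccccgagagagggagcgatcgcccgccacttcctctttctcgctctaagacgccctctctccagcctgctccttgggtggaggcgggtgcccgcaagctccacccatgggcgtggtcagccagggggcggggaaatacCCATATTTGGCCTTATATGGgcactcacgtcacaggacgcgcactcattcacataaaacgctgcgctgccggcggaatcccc

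Further genes stood lower on day 14. Ankrd37, an ankyrin repeat gene induced by hypoxia, stood at 6.67 on day 14 and 8.32 on day 10, 3.15-fold lower. Its day 14 level was at the edge of detection (detection p 0.009981), and its difference ran from -1.72 to -1.05 across the settings. Among the 23 glycolysis and hypoxia genes it was the only one past 1.5-fold (4.35%, against 2.07% of all genes lower), and the median was -0.12. Pfkl, Pfkfb3, Mxi1, Slc2a1 and Vegfa had differences of -0.54, -0.53, -0.51, -0.44 and -0.38. In the same list 9 genes were higher, up to 0.21 (Pfkm), and Ldha had 0.01. Tfrc, the transferrin receptor that imports iron, stood at 7.74 and 9.12, 2.60-fold lower, while the ferritin chains had 0.07 (Fth1) and -0.08 (Ftl1). Trib3, a pseudokinase induced by amino acid shortage, was 2.18-fold lower, Slc7a5, an amino acid transporter, 1.52-fold lower and Shmt2, a mitochondrial serine enzyme, 1.72-fold lower. The median of that list of 31 genes was 0.00. Chchd10, a mitochondrial protein, was 2.39-fold lower, and Grwd1, a ribosome assembly factor, 2.15-fold lower. Angptl4, a secreted inhibitor of lipoprotein lipase, stood at 11.10 on day 14 and 12.12 on day 10, 2.02-fold lower, and its other probe gave -0.62. Lpin3, a phosphatidate phosphatase, and Vash2, a tubulin carboxypeptidase, were 2.06-fold and 2.01-fold lower.

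Hsd11b1, the enzyme that regenerates active glucocorticoid from its inert form, stood at 12.18 on day 14 and 13.17 on day 10, just under 2-fold lower, and its other probe gave -1.02. Hsd11b2, which does the reverse, was 2.20-fold higher on its brightest probe and 2.64-fold on another. Of 31 glucocorticoid-responsive genes, 2 were at least 1.5-fold higher (Saa3 at 1.58 and Lcn2 at 0.92 on the log2 scale) and 2 lower (Angptl4 and Hsd11b1). Each is 6.45% of the list, against 4.53% of all genes higher and 2.07% lower. In the list 12 genes were higher at all, and the median was -0.04. Aldh1a3, which makes retinoic acid, was 1.85-fold lower on its brightest probe but at -0.09 on a dim one, and Aldh1a7 1.63-fold higher.

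**Figure D4:**
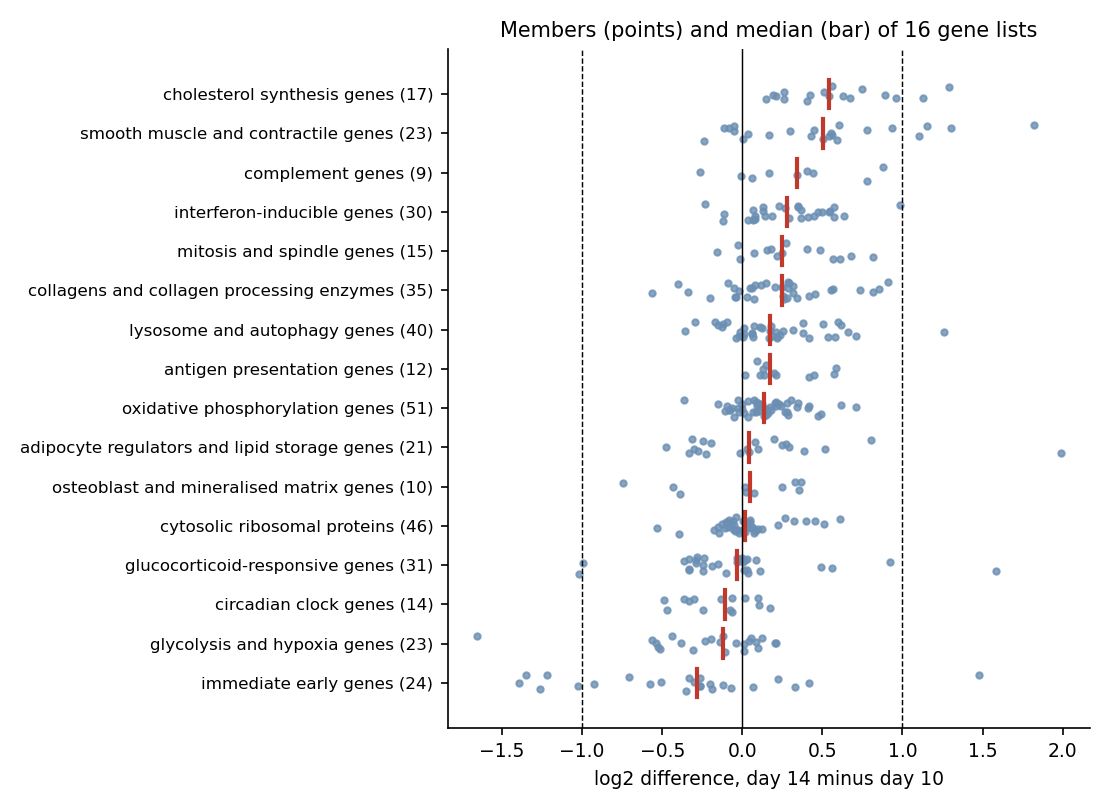
log2 difference, day 14 minus day 10 (x axis), of each described member (points) of 16 gene lists, with the list median as a red bar and the number of members in brackets; dashed lines mark 2-fold. Cholesterol synthesis and contractile genes lie furthest to the right (medians 0.54 and 0.50) and immediate early genes furthest to the left (-0.28).

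Most interferon-inducible genes were slightly higher. Of 30 described members 27 were higher on day 14, or 90.0% (24 in the setting with the fewest), where 50.4% of all genes were. Only 2 passed 1.5-fold, or 6.67%, near the 4.53% of all genes, and none passed 2-fold. Their differences ran from -0.23 (Dhx58) to 0.99 (Rsad2, detected on day 14 only) with a median of 0.28, or 0.20 over the 26 detected on both arrays. Ifit3, an RNA-binding antiviral protein, stood at 8.70 on day 14 and 8.06 on day 10, 1.55-fold higher, and its dimmer probe, near the detection limit, gave 1.07. Rsad2, the antiviral enzyme viperin, was detected on day 14 alone, at least 1.26-fold higher. Gbp3, a guanylate-binding protein, had a difference of 0.47, the RNA sensor Ddx58 0.50 (0.14 on its other probe) and the transcription factor Irf7 0.35. The lists of interferon-inducible and antigen presentation genes share Psmb8, Psmb9 and Tap1, and all 12 antigen presentation genes were higher on day 14 (11 in the setting with the fewest), with a median of 0.17. The class I chain H2-K1 differed by 0.58 (0.24 on another probe) and H2-D1 by 0.02.

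The interferon response element (GAAA, then any 2 bases, then GAAA, on either strand) was found in the promoter window of 13 of 25 interferon-inducible genes, or 52.0%, against 3.41% of 6823 described genes with a promoter and 3.44% of all windows. The lists of such genes were built on their known response, so the element is a property of the list. The 250 bases before the gene start are shown for 3 of the members named above, with the elements in capitals, read along the gene. They lie at chr12:26456453-26456702 (minus strand) for Rsad2, chr19:34583279-34583528 (plus strand) for Ifit3 and chr3:142559794-142560043 (plus strand) for Gbp3, and the last element ends 111, 113 and 30 bases before the gene start.
Rsad2: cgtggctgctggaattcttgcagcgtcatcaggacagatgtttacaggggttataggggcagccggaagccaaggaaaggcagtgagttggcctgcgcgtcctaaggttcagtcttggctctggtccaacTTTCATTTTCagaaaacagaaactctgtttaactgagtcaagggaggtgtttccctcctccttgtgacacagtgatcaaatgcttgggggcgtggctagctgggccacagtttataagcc
Ifit3: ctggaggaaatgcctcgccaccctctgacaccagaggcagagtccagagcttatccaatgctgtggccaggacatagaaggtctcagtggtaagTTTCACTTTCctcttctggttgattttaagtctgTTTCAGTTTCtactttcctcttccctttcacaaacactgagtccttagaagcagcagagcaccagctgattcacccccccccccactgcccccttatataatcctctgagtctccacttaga
Gbp3: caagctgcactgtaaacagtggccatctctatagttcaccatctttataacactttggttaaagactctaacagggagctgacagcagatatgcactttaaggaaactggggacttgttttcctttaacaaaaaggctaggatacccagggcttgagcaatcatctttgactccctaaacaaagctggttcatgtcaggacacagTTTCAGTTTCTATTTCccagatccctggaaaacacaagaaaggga

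Innate and acute phase genes moved gene by gene. Saa3, a serum amyloid protein, was 2.99-fold higher on day 14, at 8.93 against 7.35 on day 10, and Lcn2, the iron-scavenging lipocalin, 1.90-fold higher, at 13.77 against 12.85. Cfb, a protease of the alternative complement pathway, was 1.72-fold higher, and 7 of 9 complement genes, or 77.8%, were higher, against 50.4% of all genes, with a median of 0.34. Cxcl12, the stromal chemokine, was 1.67-fold higher on its brightest probe but at 0.13 on another bright one, and Icam1, a leukocyte adhesion molecule, 1.68-fold. The macrophage markers Cd14 and Lyz2 were both detected at low signal, summing to 843 on day 14 and 872 on day 10. They moved in opposite directions, with differences of 0.32 for Cd14 and -0.84 for Lyz2.

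Of the vascular and developmental factors, Angpt2, an angiopoietin, was 1.98-fold higher, and its other probe gave 1.43 beside 0.98. Fgf7 was detected on day 14 alone, at least 1.15-fold higher. Wnt2, a Wnt ligand, stood at 10.17 on day 14 and 9.01 on day 10, 2.23-fold higher. The Wnt agonists Rspo3 and Rspo2 were 1.68-fold and 1.59-fold higher, and Hes1, a Notch target, 1.64-fold. In the transforming growth factor pathway Id4, an inhibitor of helix-loop-helix factors, was 1.90-fold higher (0.93, and 1.34 on its other probe). Tgfbi (1.93-fold), the activin chain Inhbb (1.64-fold) and the signal transducer Smad3 (1.57-fold) were lower.

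The adipocyte and osteoblast genes did not move as groups. Among 21 adipocyte genes, Car3 and Adipoq, the hormone adiponectin (1.75-fold), passed 1.5-fold upwards. This was 9.52% of the list, against 4.53% of all genes, and the median was 0.04. All 3 mature adipocyte markers with a probe, Adipoq, Pparg and Fabp4, were detected, with a summed signal of 3290 on day 14 and 2576 on day 10. Lpl, Plin2, Cebpa and Lipe had -0.22, -0.20, -0.30 and -0.31. Among 10 genes of mineralised matrix, Smpd3, a sphingomyelinase needed for mineralisation, was the only one past 1.5-fold, at 10.74 on day 14 and 11.48 on day 10, 1.67-fold lower. Omd, osteomodulin, had -0.43, Mgp, a mineral inhibitor, -0.39 near the top of the scale, and Pth1r 0.35. Sp7 was detected on day 14 alone, at least 1.28-fold higher, and its other probe gave 0.15 below detection. The signs of the adipocyte and mineralised matrix medians changed with the normalization.

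Broad cell functions moved by small amounts. Of 29 mitosis genes 15 were described, 7 of them detected on day 14 alone, and the median over the 8 detected on both arrays was 0.11. Cdk1, the mitotic kinase, stood at 9.39 on day 14 and 8.99 on day 10, after 12.95 on day 1. Of 40 lysosomal genes 5 passed 1.5-fold upwards, or 12.5% against 4.53% of all genes, led by the protease Ctsh, 2.40-fold higher at 12.47 against 11.21, and the median was 0.17. Of 37 glutathione and redox genes 6 did, or 16.2%, led by Mgst3, a microsomal glutathione transferase, 2.01-fold higher and 0.90 on its other probe. The median was 0.13 over 51 oxidative phosphorylation genes and 0.02 over 46 ribosomal proteins. Of the housekeeping references, Hprt lay at 0.00, Eef2 at 0.02, Eef1a1 and Ywhaz at 0.06, Gapdh at 0.10 and Tbp at -0.13. Gusb had 0.38 on its brightest probe (0.75 and 0.75 on its others), Rpl13a 0.40, Rplp0 0.61 and Tfrc -1.38. Actb, B2m, Ppia and Tuba1b were read at over 50% of the highest signal and are not resolved. The signs of Eef2, Ppia, Eef1a1 and Hprt changed between settings.

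The remaining lists had medians between -0.29 and 0.22. Some hold members detected on 1 array only. Over all genes, 4.53% were at least 1.5-fold higher and 2.07% lower. The highest median was that of 28 vascular peptide and angiogenic genes, at 0.22. There 5 members were at least 1.5-fold higher (17.9%) and 1 lower (3.57%). Next came 24 Wnt and Notch genes (0.21), with 5 higher (20.8%) and none lower. Cyclins and CDK inhibitors had 0.19, and p53 targets 0.18 with 2 higher (13.3%). Inflammatory cytokines and chemokines had 0.14 with 3 higher (17.6%), and glutathione and redox genes 0.14. Chondrocyte genes had 0.13, fatty acid oxidation genes 0.12, proteasome subunits 0.09, proteoglycans and matricellular proteins 0.09, matrix proteases and their inhibitors 0.08, the IGF system 0.07, housekeeping references 0.06 and acute phase genes 0.02. Below 0 stood DNA replication (-0.02), heat shock genes (-0.05), retinoid and steroid metabolism (-0.05) and osteoblast transcription factors (-0.09). The transforming growth factor pathway had -0.10, with 2 members 1.5-fold higher (6.67%) and 3 lower (10.0%). Clock genes had -0.11, and metallothioneins and metal transporters -0.13. The 6 Sox genes had -0.29, with Sox12 at -0.52 and Sox9, a cartilage regulator, at -0.31, and none passed 1.5-fold. Of markers of other cell types, 3 of 4 endothelial ones were detected, with summed signals of 1669 on day 14 and 1773 on day 10. That sum holds opposite moves, with Eng at 0.63, Kdr at -0.14 and Tek at -0.58. Both chondrocyte markers with a probe were detected, at 13242 and 16071, nearly all from Sox9. The Schwann cell marker Mbp was at 510.4 and 656.8, and no marker of lymphocytes, osteocytes, epithelial or erythroid cells had a probe among the named ones.

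**Figure D5:**
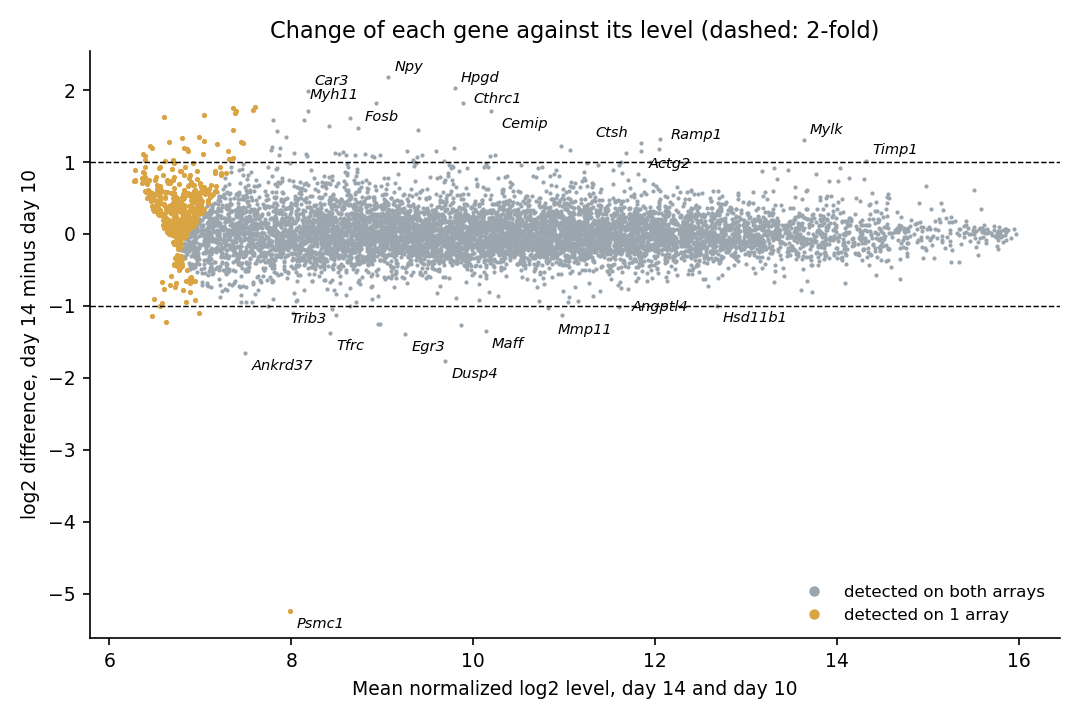
log2 difference, day 14 minus day 10 (y axis), of 8324 genes against their mean normalized log2 level (x axis); orange points were detected on 1 of the 2 arrays and dashed lines mark 2-fold. The cloud narrows towards bright genes, and Psmc1 lies alone at -5.24.

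The single change past 8-fold was that of Psmc1, an ATPase subunit of the 26S proteasome. Its only probe read 1757, 2010, 1578, 111.5, 1720 and 121.8 signal units on days 0, 1, 3, 6, 10 and 14, so that it was at background on days 6 and 14 and between 10.55 and 10.83 on the log2 scale on the other 4 days. Day 14 was at least 15.6-fold lower than day 10. The authors' deposited table gives the same switch, with a signed fold over day 0 of -15.58 on day 14 and -1.16 on day 10. The other 5 ATPase subunits had differences of -0.15 to 0.36, and the other described proteasome subunits lay between -0.27 and 0.41. No other of the 46613 probes was at least 8-fold lower on both days 6 and 14 than on the other 4 days, all 4 detected. The cause was not tested.

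Genes at least 2-fold apart between days 0 and 6 passed 1.5-fold in both directions more often than all genes in the late step. Days 0 and 6 are arrays not used in that step. Of the 1132 genes at least 2-fold higher on day 6 than on day 0, 121 went at least 1.5-fold higher from day 10 to day 14. This was 10.7%, against 4.53% of all genes. Another 41 went lower (3.62%, against 2.07% of all genes), and the median was 0.07. Of the 686 genes at least 2-fold lower on day 6, 49 were 1.5-fold higher (7.14%) and 40 lower (5.83%), with a median of -0.02. Of the 6216 genes that had moved less than 2-fold by day 6, 2.77% were 1.5-fold higher and 1.16% lower on day 14. Of the other 290, detected on neither early array, 12.1% were 1.5-fold higher and 6.55% lower. These 290 were described only because day 14 or day 10 detected them, which favours a difference, so their shares are not comparable with the others. No class was split by detection on both arrays. The genes that had risen by day 6 held 35 of the 80 genes at least 2-fold higher on day 14, among them Npy, Hpgd, Car3 and Ramp1. Those that had fallen held 9.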

How the data were processed

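Total RNA from 1 culture a day was hybridised as biotinylated cRNA to Illumina bead arrays. The deposited table holds an intensity per probe with no normalization across arrays, and the deposited detection p-value stands beside it. The authors' deposited fold table holds signed folds over day 0, treated as a score, whose scaling is not given in the sources used here. Signal columns were tied to days through equal values in the series matrix. Intensities were background corrected with nec in limma 3.58.1 (R 4.3.3; offset 16), quantile normalized over 6 arrays and put on the log2 scale. A gene is its brightest of the probes with 1 symbol (13807 probes in the annotation). Precision is limited by signal over background and by having 1 array a day. Named genes were the 15 largest rises and falls detected on both arrays, the 8 largest bounds each way, leading members of 38 lists (further members were named after their values were seen), markers, the genes whose probes disagree most, and the largest movers among genes changed by day 6. The members and lists were chosen with earlier results of these data known. The scripts were tested on simulated data. Alternatives changed the normalization, background correction, offset, detection filter, probe choice and source of values.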

Additional observations from a re-analysis of the deposited data

Results flagged for a closer look

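The annotation gives no single gene symbol for 2890 probes detected on day 14 or day 10, and these stood outside the comparisons above. Among them 23 were at least 2-fold higher on day 14 than on day 10 (0.796%) and 16 at least 2-fold lower (0.554%). At 1.5-fold, 104 were higher and 130 lower, and the median difference was -0.07. They were listed because they carry signal that the gene-level comparison leaves out, and the balance of higher over lower seen among named genes was not seen at 1.5-fold among these probes. The cause was not tested.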

How the results depend on the processing

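Every count rests on 1 array a side. The count of genes at least 2-fold higher on day 14 was 80, and 30 without background correction, 51 with detection on both arrays and 30 from the ratio of the authors' deposited folds. The count of genes at least 2-fold lower was 21, and 10 without background correction, 13 with an offset of 50 and 10 from the authors' folds. The authors' ratios matched quantile normalization without background correction within 0.02 for all 8324 genes, so these alternatives are the same calculation. Uncorrected background adds to both arrays and shrinks folds of dim genes. Under the other alternatives the counts were 56 to 82 higher and 16 to 28 lower, and the SD of the difference was 0.263 to 0.325 throughout. Of the 216 genes taken by the naming rules, none at least 1.5-fold apart changed direction, nor did a list median of 0.2 or more. Genes named after their values were seen, such as Etv5, Phlda1, Pqlc3, Hsd11b2 and Ptges3l, were not checked in this way. The medians of 7 lists near 0 changed sign with the scaling. Without Psmc1, an alternative chosen after seeing the data, 20 genes were at least 2-fold lower and the SD was 0.320. No paired analysis was possible because each day has 1 array.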
